A study of Homo sapiens with 4 samples.

Results

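Collagens, laminins, fibronectin and the integrins that bind them were followed through polysome profiling of METTL3-WT and METTL3-K177Q reconstituting cells. Members were taken by name, as genes classed as mRNA whose symbol starts with COL, LAMA, LAMB, LAMC, ITGA or ITGB and a digit, together with ITGAV and FN1. Names with a hyphen and the ITGB1BP genes, which match this pattern, were left out. This gave 79 of the 28198 genes in the table, made up of 44 collagens, 12 laminins, 21 integrins, FN1 and ITGB3BP. ITGB3BP is a centromere protein gene that was taken by name only and is described apart.

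MDA-MB-231, a mesenchymal human breast cancer line, had been depleted of METTL3, the m6A methyltransferase, and given back either METTL3-WT or METTL3-K177Q, an acetylation mimic, by lentivirus, so both genotypes are depleted of endogenous METTL3 and carry an introduced one. Both genotypes received cycloheximide (100 µg/mL, 5 min) before lysis, and lysates were run on a 10 to 50% sucrose gradient and pooled into a sub-polysome and a polysome fraction of each genotype. The 4 poly(A)-selected libraries analysed here, all of replicate 2, give 1 library per condition (columns named for replicate 1 were not used), so nothing here carries a replicate error, and no test was made. Levels are in FPKM, fragments per kilobase of transcript scaled to the mapped fragments of the library, which can be set side by side between genes but hides a shift common to a whole library.

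Collagens, laminins and fibronectin form the extracellular matrix. Collagen chains assemble into triple helices, laminins are cross-shaped trimers of an alpha, a beta and a gamma chain that build basement membranes, and fibronectin is a dimer that carries the RGD motif. Integrins are pairs of an alpha and a beta subunit that span the plasma membrane, bind these ligands and link them to the actin cytoskeleton. All are made on membrane-bound ribosomes from long coding sequences.

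METTL3 was listed at 9.39 FPKM in WT sub-polysome, 38.7 in WT polysome, 5.07 in K177Q sub-polysome and 29.5 in K177Q polysome RNA, which cannot separate the introduced mRNA from what remained of the endogenous one. Of the MDA-MB-231 mesenchymal markers, 8 of 8 were kept, with a summed level of 5299 to 9512 FPKM over the libraries. Most of this sum was LGALS1, between 4231 and 7499. VIM lay between 677 and 1543, while SNAI2 (8.11 to 9.57) and ZEB1 (2.32 to 4.76) were low. Luminal epithelial markers were kept for 6 of 10 genes, with a sum of 1159 to 2819 FPKM that came mostly from the keratins KRT8, KRT18 and KRT19. The luminal markers ESR1, PGR, FOXA1 and CDH1 were below the minimum, at no more than 0.632 FPKM in any library. Blood and immune markers were kept for 1 of 6, CD14, with a sum of 24.9 to 60.0. FPKM summed over all genes to between 767949 and 1037594, so rescaling to equal totals (TPM) moves every ratio, and the medians of all kept genes are given at the start of each comparison. The depth is not stated. FPKM times transcript length has a lowest cluster that, read as 1 fragment, gives 24100000 to 26800000 fragments per library, and the counting errors below rest on this approximation and cover counting only.

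The module was expressed by a minority of its genes. Of the 79 members, 32 averaged 1 FPKM or more across libraries and were kept for ratios (12 collagens, 8 laminins, 10 integrins, FN1 and ITGB3BP), 34 were above 0 but below this minimum, and 13 were listed at 0 in every library. The kept member nearest the minimum was LAMA4 with a mean of 1.42 FPKM, and the nearest below it was COL4A5 with 0.893. Members summed to 787 FPKM in WT sub-polysome, 1482 in WT polysome, 842 in K177Q sub-polysome and 1918 in K177Q polysome RNA, or 0.0875%, 0.181%, 0.0811% and 0.250% of the library totals.

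**Figure D1:**
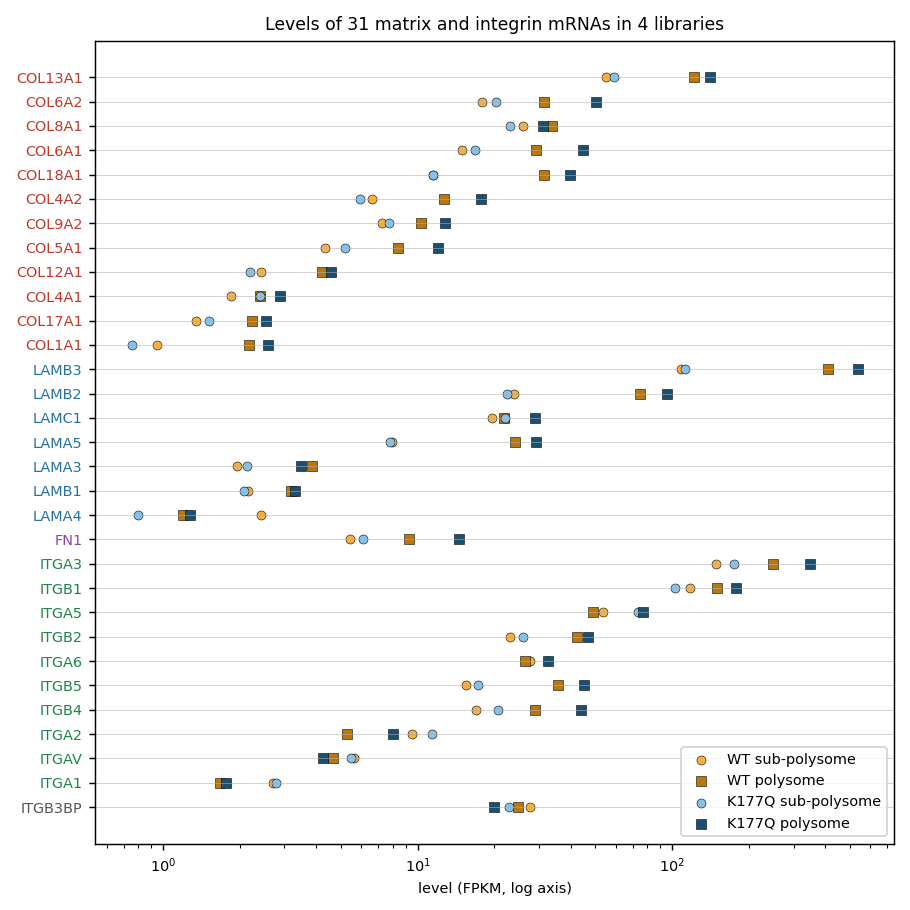
Level of 31 kept members (FPKM, log axis) in the 4 libraries, with circles for sub-polysome and squares for polysome RNA and gene names coloured by family. LAMB3, ITGA3 and ITGB1 had the highest means, 293, 230 and 137 FPKM, and the WT sub-polysome level of LAMA4 (2.42) lies well above its other 3 values.

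Polysome association was compared first within each genotype. In both, most collagens, laminins and integrin beta subunits were more abundant in polysome than in sub-polysome RNA, whereas most integrin alpha subunits were not. The log2 polysome to sub-polysome ratio, with 0.1 added to each FPKM, had a median of 0.76 over the 32 kept members in WT and 0.92 in K177Q cells, against 0.14 and 0.16 over all 10905 kept genes. In WT cells 19 members were at least 1.5-fold higher in polysome RNA, where 28.1% of all genes were, and 3 were lower, where 19.1% were. In K177Q cells 23 were higher, against 30.2% of all genes, and 1 was lower, against 21.3%.

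Translation begins when the small ribosomal subunit recognizes the AUG in its surroundings, of which a purine at position -3 and a G at +4, counted from the A as +1, are known to matter most. The windows from 12 bases before the A to the sixth base of the coding sequence are shown for the 3 kept members with the highest and the 3 with the lowest WT polysome to sub-polysome ratio, since these span the range of the module. Capitals mark the base at -3, the ATG and the base at +4 (canonical transcripts of GENCODE 44 on GRCh38). The first 3 are the highest, in falling order.
LAMB3, chr1:209650939-209650956, minus strand: cattggctgAagATGAga
LAMB2, chr3:49132862-49132879, minus strand: cccctcttcAggATGGag
LAMA5, chr20:62367240-62367257, minus strand: ggagccgggAagATGGcg
ITGA1, chr5:52788342-52788359, plus strand: gctgctccgGccATGGcc
ITGA2, chr5:52989457-52989474, plus strand: gtcagacccAggATGGgg
LAMA4, chr6:112254145-112254162, minus strand: gtcagcggaGaaATGGct
All 6 have a purine at -3, and 5 have the G at +4. LAMB3, which had the highest ratio of the 6, is the one without it. Over the module, 30 of 32 kept members (93.8%) had a purine at -3 and 18 (56.3%) both features, ANNATGG or GNNATGG on the coding strand, against 87.5% and 47.3% of 10071 other kept mRNAs. A match only describes these letters.

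Laminins held the highest ratios of the module. LAMB3 encodes a beta chain of an epithelial laminin that also holds LAMA3 (chr1:209614870-209652425, minus strand, 23 exons). It was listed at 109 FPKM in WT sub-polysome, 411 in WT polysome, 112 in K177Q sub-polysome and 538 in K177Q polysome RNA. Both polysome libraries lay far above both sub-polysome libraries, with log2 ratios of 1.92 and 2.26. LAMB2, the beta chain of basement membrane laminins in many tissues, followed with 24.0 and 74.8 FPKM in the WT fractions and 22.5 and 95.3 in the K177Q fractions. LAMA5, a widely expressed alpha chain, had 7.94 and 24.1 FPKM in WT and 7.81 and 29.1 in K177Q cells. Their ratios were 1.64 and 1.59 in WT cells and 2.08 and 1.88 in K177Q cells.

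Chains that assemble with each other could differ in ratio, at 1.92 for LAMB3 and 0.94 for LAMA3 in WT cells. LAMA3, an alpha chain that assembles with LAMB3 and is named here after its values were seen, had 1.95 and 3.84 FPKM in WT and 2.13 and 3.49 in K177Q cells. LAMB3 thus stood at 55.8 times LAMA3 in WT sub-polysome RNA and at 107 times in WT polysome RNA. LAMC1, the gamma chain of most other laminins, was nearly even between fractions in WT cells, with 19.6 and 21.9 FPKM, and had 22.0 and 29.0 in K177Q cells.

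All 12 kept collagens had a log2 polysome to sub-polysome ratio above 0 in both genotypes, where 57.3% of all kept genes had in WT and 57.2% in K177Q cells. The collagens ranged from 0.36 to 1.43 in WT cells, where laminins spanned -0.96 to 1.92 and integrins -0.83 to 1.19. The collagen median was 0.87 in WT and 1.23 in K177Q cells. Of the 12, 9 and 10 were at least 1.5-fold higher in polysome RNA, against 28.1% and 30.2% of all kept genes. COL13A1, a transmembrane collagen of cell-matrix junctions (chr10:69801880-69964275, plus strand), was the most abundant, with 55.0 and 121 FPKM in WT and 59.0 and 141 in K177Q cells. COL18A1, the basement membrane collagen that releases endostatin, had the highest ratio of the family, with 11.5 and 31.3 FPKM in WT and 11.5 and 39.8 in K177Q cells. COL8A1, a short-chain network-forming collagen, was the least polysomal of the 6 most abundant collagens, with 26.0 and 33.7 FPKM in WT and 23.1 and 31.0 in K177Q cells.

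Some collagens were listed with only part of their chains. Of fibrillar type I collagen, COL1A1 had a mean of 1.61 FPKM and its partner COL1A2 a mean of 0.108. Of type VI collagen, COL6A3 had a mean of 0.557 FPKM beside 26.4 for COL6A1 and 30.0 for COL6A2. COL1A1, COL1A2 and COL6A3 were named after their values were seen. COL27A1 is a fibrillar collagen that the study lists among METTL3-bound mRNAs with a higher polysome to sub-polysome ratio in K177Q cells. It was below the minimum, with 0.374 and 0.568 FPKM in WT and 0.183 and 0.467 in K177Q cells. Its log2 polysome to sub-polysome ratio was 0.51 higher in K177Q than in WT cells (counting error about 0.36). With 1 or 0.01 added to each FPKM, this difference was 0.12 or 0.71.

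FN1 encodes fibronectin (chr2:215360440-215436073, minus strand, 46 exons). It had 5.43 FPKM in WT sub-polysome, 9.26 in WT polysome, 6.12 in K177Q sub-polysome and 14.5 in K177Q polysome RNA. The K177Q polysome library was the highest of the 4, and the log2 polysome to sub-polysome ratio was 0.76 in WT and 1.23 in K177Q cells.

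Integrins divided by subunit class. The 4 kept beta subunits, ITGB1, ITGB2, ITGB4 and ITGB5, had WT ratios of 0.35 to 1.19 with a median of 0.82, and all 4 were above 0 in both genotypes. The 6 kept alpha subunits had WT ratios of -0.83 to 0.73 with a median of -0.20, and 1 of 6 was above 0. Of all kept genes, 57.3% were above 0 in WT and 57.2% in K177Q cells. In K177Q cells the beta and alpha medians were 0.96 and -0.18. Rescaled to TPM the alpha median was -0.07 in WT and turned to 0.25 in K177Q cells, but it lay below the median of all genes, 0.28 and 0.59 on that scale, in both.

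ITGA3, the laminin-binding alpha subunit that pairs with ITGB1 (chr17:50055968-50090481, plus strand), was the alpha subunit above 0, with 149 and 248 FPKM in WT and 174 and 348 in K177Q cells. ITGB1, the shared partner of many alpha subunits (chr10:32887273-33005792, minus strand), had 118 and 150 FPKM in WT and 103 and 178 in K177Q cells. ITGA5, which forms the classical fibronectin receptor with ITGB1, had 53.5 and 48.7 FPKM in WT and 73.4 and 77.0 in K177Q cells. The fractions of ITGA5 differed little within a genotype, and both K177Q libraries lay above both WT libraries.

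The collagen receptor alpha subunits ITGA2 and ITGA1 are neighbours on chromosome 5 (chr5:52989340-53094779 and chr5:52787916-52959209, both plus strand) and had the lowest WT ratios after LAMA4. ITGA2 had 9.49 and 5.29 FPKM in WT and 11.4 and 7.97 in K177Q cells. ITGA1 had 2.7 and 1.67 FPKM in WT and 2.77 and 1.77 in K177Q cells. Sub-polysome RNA was the higher fraction for both genes in both genotypes, and ITGA1 was the member at least 1.5-fold lower in K177Q cells.

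The remaining receptors gave the same contrast within pairs. ITGAV, the alpha subunit of RGD-binding integrins, had 5.64 and 4.66 FPKM in WT and 5.47 and 4.26 in K177Q cells, while its partner ITGB5 had 15.5 and 35.5 in WT and 17.3 and 45.2 in K177Q cells. ITGA6, a laminin-binding alpha subunit, had 27.6 and 26.4 FPKM in WT and 32.6 and 32.5 in K177Q cells. ITGB4, its hemidesmosomal partner, had 17.0 and 28.9 FPKM in WT and 20.6 and 43.8 in K177Q cells. In the WT cells the beta subunit exceeded the alpha subunit in log2 polysome to sub-polysome ratio by 1.46 for ITGB5 and ITGAV, by 0.83 for ITGB4 and ITGA6 and by 0.48 for ITGB1 and ITGA5. The order was the other way for ITGB1 and ITGA3, with -0.38. ITGB2, the beta subunit best known from leukocytes, had 23.1 and 42.3 FPKM in WT and 25.9 and 46.6 in K177Q cells, and its antisense gene ITGB2-AS1 was listed at up to 10.3% of its level, in WT sub-polysome RNA. Reads of such a pair can be told apart only if strand was used in counting, which is not given in the sources used here. Antisense partners of 7 other kept members reached at most 2.94% of their member's level, in ITGA6.

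**Figure D2:**
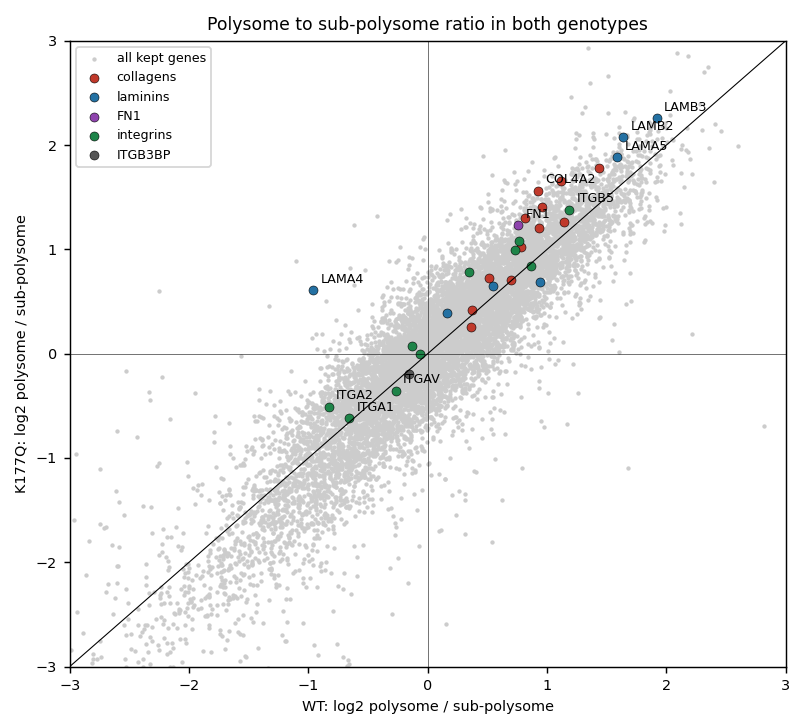
Log2 polysome to sub-polysome ratio in WT (horizontal axis) and K177Q cells (vertical axis) for all kept genes (grey) and 31 kept members (coloured by family), with the line of equality (genes beyond the axes are not drawn). LAMB3, LAMB2 and LAMA5 lie at the upper right, ITGA1 and ITGA2 at the lower left, and LAMA4 far above the line at -0.96 and 0.61.

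The members shared a feature that the names did not use, length. The median coding length of the kept members was 3564 bases (laminins 5379, collagens 4208, integrins 3153), against 1317 for 10259 other kept mRNAs. Their 3' untranslated regions, with a median of 1144 bases, were close to the 1203 of other mRNAs, but laminins had a median of 410 and integrins 1539. Across the 32 members the WT polysome to sub-polysome ratio had a Spearman correlation of -0.46 with the length of the 3' untranslated region and 0.19 with the coding length, against -0.19 and 0.22 across the other mRNAs. The points share the same 2 libraries, and genes are not independent replicates. ITGA1 and ITGA2 had 6758 and 4180 bases of 3' untranslated region and LAMB3, LAMB2 and LAMA5 had 401, 112 and 271, while LAMA4, with 1506, did not follow this order.

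Translation efficiency, the polysome to sub-polysome ratio, was then compared between genotypes to ask whether ribosome loading of these mRNAs differed with the acetylation mimic. It was slightly higher in K177Q cells for most members, by a median of 0.24 on the log2 scale (1.18-fold) against -0.01 over all kept genes. The ratio was above 0 for 27 of 32 members and for 48.9% of all kept genes. It passed 1.5-fold upward for 2 members, LAMA4 and COL4A2, where 4.08% of all genes did, and downward for 0, where 7.03% did. Rescaled to TPM, where the median of all genes moved to 0.29, 13 members passed upward and 0 downward, beside 1971 and 288 of all genes (445 and 767 as given). Relative to that median the members' median was 0.24, close to the 0.25 without rescaling.

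**Figure D3:**
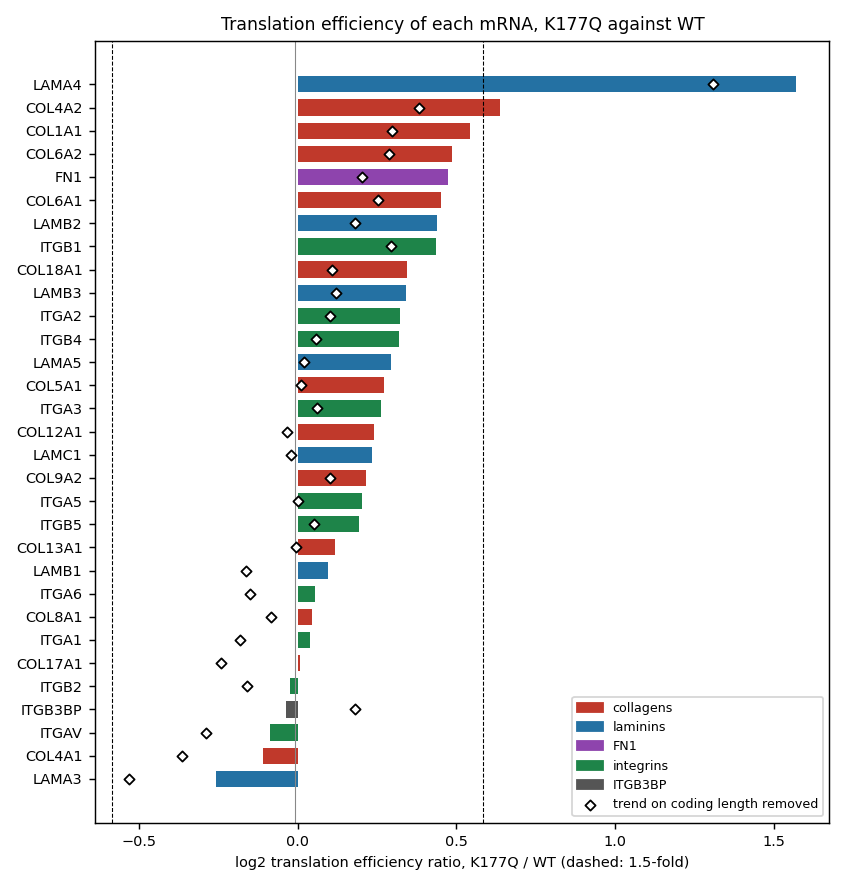
Log2 translation efficiency ratio, K177Q against WT, of 31 kept members (bars from 0, coloured by family), with diamonds for the value after the trend on coding length was removed, a grey line at the median of all kept genes and dashed lines at 1.5-fold. LAMA4 (1.57) and COL4A2 (0.64) pass the threshold, COL1A1 (0.54) lies just inside it, and the diamonds spread on both sides of 0.

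COL4A2, one of both ubiquitous chains of basement membrane type IV collagen (chr13:110305812-110513209, plus strand, 48 exons), had 6.64 FPKM in WT sub-polysome, 12.7 in WT polysome, 5.96 in K177Q sub-polysome and 17.8 in K177Q polysome RNA. In K177Q cells it was thus higher in polysome RNA and slightly lower in sub-polysome RNA, and its translation efficiency ratio was 1.56-fold (log2 0.64, counting error about 0.08). COL4A1, its partner chain, is transcribed from the opposite strand of the same start region (chr13:110148963-110307157, minus strand), and the annotated spans overlap. COL4A1 had 1.85 and 2.40 FPKM in WT and 2.40 and 2.88 in K177Q cells, with a log2 ratio of -0.11. The ratio of COL4A2 exceeded that of COL4A1 by 0.75 (counting error about 0.16), a difference between genes with no replicate behind it. COL4A1 was named after its values were seen.

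LAMA4, the alpha chain of laminins in blood vessels and mesenchyme (chr6:112107931-112254939, minus strand, 39 exons), had the highest ratio of the module. It was listed at 2.42 FPKM in WT sub-polysome, 1.20 in WT polysome, 0.800 in K177Q sub-polysome and 1.27 in K177Q polysome RNA. The polysome levels were alike, and the ratio of 2.97-fold (log2 1.57, counting error about 0.19) rests on the WT sub-polysome value, the highest of the 4. With 1 library per condition, a change in the cells and a deviation of that library cannot be told apart.

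Members just below the threshold were mostly matrix genes, the nearest being COL1A1 with a log2 ratio of 0.54 at 0.946 and 2.17 FPKM in WT and 0.753 and 2.59 in K177Q cells (counting error about 0.21). COL6A2 and COL6A1 encode type VI collagen chains that lie side by side on chromosome 21. COL6A2 had 17.8 and 31.4 FPKM in WT and 20.4 and 50.3 in K177Q cells. COL6A1 had 15.0 and 29.2 FPKM in WT and 16.7 and 44.6 in K177Q cells. Their log2 translation efficiency ratios were nearly equal, at 0.49 and 0.45, and COL6A2 stood at 1.08 to 1.22 times COL6A1 in every library. FN1 followed with 0.47, LAMB2 and ITGB1 with 0.44, COL18A1 with 0.35, LAMB3 with 0.34, and ITGA2 and ITGB4 with 0.32 each.

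By family, the median log2 ratio was 0.26 for collagens, 0.26 for laminins, 0.26 for integrin beta and 0.13 for integrin alpha subunits. The 5 members at or below 0 were LAMA3 (-0.26), COL4A1 (-0.11), ITGAV (-0.09), ITGB3BP (-0.04) and ITGB2 (-0.02). Rescaled to TPM all of these were above 0, as were all 32 kept members, beside 8598 of 10905 kept genes.

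These ratios were close to those of other mRNAs of their length. Over kept mRNAs that are not members, the median log2 translation efficiency ratio was -0.19 for coding lengths under 1000 bases, 0.15 from 2000 to 3000, 0.23 from 3000 to 4500 and 0.26 above that. Kept members in the last 3 classes had medians of 0.16 (6 members), 0.26 (13) and 0.28 (12), and 17 of 31 lay above the median of their class. After a lowess trend on coding length was removed, the members' median was 0.04 and 19 of 32 were above 0, beside 5121 of 10305 genes. COL4A2 then had 0.38, FN1 0.20, ITGB1 0.29 and LAMA4 1.31.

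The levels themselves were compared between genotypes within each fraction. In polysome RNA the members' median log2 difference, K177Q against WT, was 0.30 against -0.02 over all kept genes. Above 0 were 28 of 32 members and 46.2% of all kept genes. The difference passed 1.5-fold upward for 6 members, against 2.13% of all genes, and downward for 0, against 3.13%. Among them were COL6A2 (0.68), ITGA5 (0.66), FN1 (0.64), COL6A1 (0.61) and ITGB4 (0.60), that is fibronectin with a subunit of its receptor, a microfibrillar collagen pair and the hemidesmosomal beta subunit. ITGA2 lay just under the threshold with 0.58. The study lists ITGB4 among metastasis genes with fewer m6A marks and lower expression in K177Q cells, from unfractionated RNA not used here. In these fractions ITGB4 was higher in K177Q cells, by 0.60 in polysome and 0.28 in sub-polysome RNA. The reason for the difference was not tested.

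In sub-polysome RNA the median was 0.11 against 0.00 over all kept genes, with 21 of 32 members and 49.4% of all kept genes above 0. Rescaled to TPM it was -0.09 against -0.21, so the sign depends on the scaling and the distance from all genes does not. No member passed 1.5-fold upward, where 4.02% of all genes did, and LAMA4 passed downward (-1.49), where 2.94% did. ITGA5 was highest, with 0.46.

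**Figure D4:**
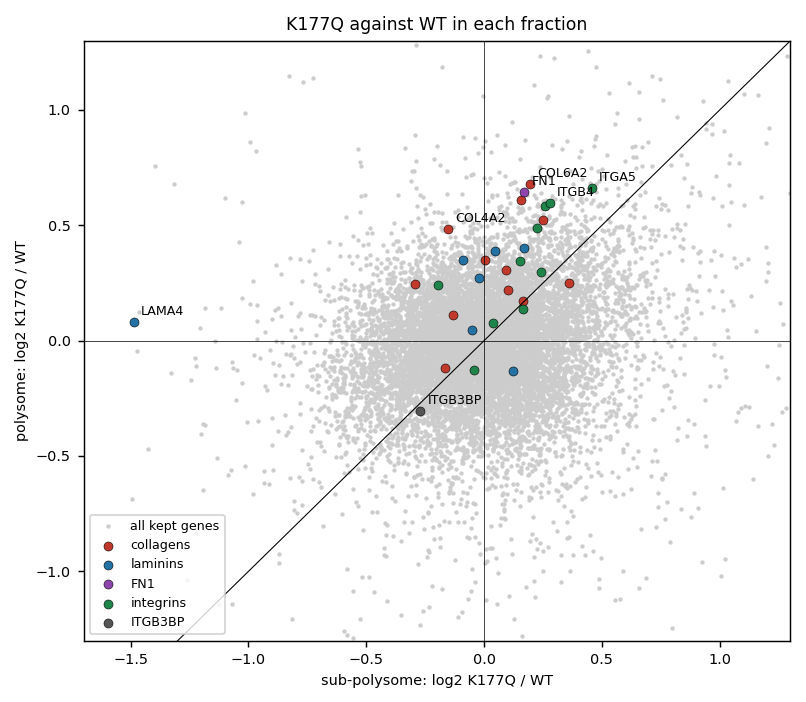
Log2 K177Q against WT in sub-polysome (horizontal axis) and polysome RNA (vertical axis) for all kept genes (grey) and 31 kept members (coloured by family), with the line of equality (genes beyond the axes are not drawn). Most members lie above 0 on the vertical axis, ITGA5 lies above 0 on both axes, COL4A2 lies at -0.16 on the horizontal and 0.48 on the vertical axis, and LAMA4 lies at -1.49 on the horizontal axis.

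Against other mRNAs of like coding length, members were higher in both K177Q fractions. For 3000 to 4500 bases, the 13 members had medians of 0.39 in polysome and 0.16 in sub-polysome RNA, against 0.07 and -0.16 for 798 other mRNAs. For longer coding sequences, the 12 members had 0.31 and 0.05 against 0.07 and -0.18 for 420 others. Of the 31 members of 2000 bases or more, 27 lay above the median of their class in polysome and 27 in sub-polysome RNA. The polysome to sub-polysome ratio itself also exceeded the class median in WT cells for 23 of 31 members and in K177Q cells for 20 of 31. Related gene lists, described next, were also above the median of all kept genes in polysome RNA. Medians in polysome and sub-polysome RNA were 0.31 and 0.32 for matrix-degrading enzymes and inhibitors, and 0.29 and 0.21 for collagen-modifying and collagen-export genes. They were 0.27 and 0.19 for other matrix glycoproteins, 0.20 and 0.23 for other cell-matrix receptors, and 0.13 and -0.04 for integrin adaptors. In polysome RNA the rise was thus not particular to the members.

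Genes that work with these proteins were counted from lists of background knowledge, and their counts are to be read against the 4.08% of all kept genes that were 1.5-fold higher and the 7.03% that were lower, with a median of -0.01. Of 25 kept collagen-modifying and collagen-export genes, 0 were 1.5-fold higher in translation efficiency and 1 was lower, the prolyl isomerase PPIB (-0.65), with a median of 0.11. Of 38 kept integrin adaptor and focal-adhesion genes, 2 were higher, DOCK1 (0.69) and KANK2 (0.59), and 0 lower, with a median of 0.17, a share of higher genes near that of all genes. Other matrix glycoproteins and proteoglycans had a median of 0.13, with 0 of 20 past the threshold either way.

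Matrix-degrading enzymes and their inhibitors had a median of 0.06, and 1 of 24, the gelatinase MMP9 (0.87), was higher, again near the 4.08% of all genes. Other cell-matrix receptors had a median of -0.08, and 2 of 16, CD63 (-0.88) and RPSA (-0.68), were lower and 0 higher, beside 7.03% of all genes lower. RPSA is also a protein of the small ribosomal subunit. The mesenchymal, luminal and immune marker lists had no gene past the threshold, with medians of -0.02, -0.04 and -0.42 over 8, 6 and 1 kept genes. DOCK1, KANK2, PPIB, MMP9, CD63 and RPSA were named as the genes past the threshold.

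ITGB3BP encodes a centromere protein and no matrix receptor. It had 27.6 and 24.8 FPKM in WT and 22.9 and 20.0 in K177Q cells, and was the lowest of the kept members in polysome RNA, K177Q against WT (-0.31). Without it the median translation efficiency ratio of the other 31 members was 0.24. ITGB1BP1, left out of the members by rule, is counted with the integrin adaptors. Its log2 WT polysome to sub-polysome ratio (-1.50) and translation efficiency ratio (-0.43) lay below those of every kept member.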

How the data were processed

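Polysome and sub-polysome RNA of MDA-MB-231 cells reconstituted with METTL3-WT or METTL3-K177Q was analysed in 4 poly(A)-selected, strand-directional libraries of replicate 2. The authors deposited 1 table of FPKM values per gene. The submitters' processing notes name STAR 2.7, StringTie 2.1.5 and the build hg38 without giving their roles. The annotation and the use of strand in counting are not given in the sources used here. The table has 4 more sample columns, named for replicate 1 of each condition, that correspond to none of the listed samples, and these were left out.

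A gene was kept if it averaged 1 FPKM or more. Ratios were taken on log2(FPKM + 0.1), so fold changes of low genes are understated, and 1.5-fold, the threshold of the study, set what was counted as higher or lower. Translation efficiency was polysome over sub-polysome FPKM. Lengths, positions and start codon windows came from canonical transcripts of GENCODE 44 on GRCh38, found by symbol for 79 of 79 members. A coding length was found for 94.5% of kept genes. The trend on coding length was a lowess fit with a span of 0.3. With 1 library per condition, no test was made. Depth is unknown but for an approximation from the lowest cluster of FPKM times length, made after looking at the values.

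Members and lists were chosen with earlier results of these data known. The named genes were FN1, ITGB1, ITGAV, ITGB4 and COL27A1, the 6 collagens, 4 laminins and 8 integrins with the highest mean among kept members, kept members past 1.5-fold in translation efficiency ratio, the 3 highest and 3 lowest WT polysome to sub-polysome ratios, and ITGB3BP. For 1 member, counted in every count and median, values are not reported here. Lists were collagen-modifying and collagen-export genes, integrin adaptors and focal-adhesion genes, other matrix glycoproteins and proteoglycans, other cell-matrix receptors, matrix-degrading enzymes and inhibitors, and mesenchymal, luminal and immune markers. Alternatives were pseudocounts of 0.01 and 1, other minimums, 3 rescalings of the libraries, centring, a 2-fold threshold, removal of the length trend and leaving out ITGB3BP. The calculation was tested on simulated data. Calculations used statsmodels 0.14.6, pandas 2.3.3, scipy 1.17.1 and numpy 2.4.6 in Python 3.11.15, and plots matplotlib 3.10.9.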

Additional observations from a re-analysis of the deposited data

Results flagged for a closer look

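The polysome to sub-polysome ratio of 2 kept members lay on opposite sides of 0 in the 2 genotypes, with 1 library each, and the difference was not tested. LAMA4 had log2 ratios of -0.96 in WT and 0.61 in K177Q cells, a difference of 1.57, and rescaled to TPM -0.83 and 1.0. ITGA5 had -0.14 and 0.07, a difference of 0.20, and rescaled to TPM -0.00024 and 0.50.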

How the results depend on the processing

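No paired analysis was possible because each condition has 1 library, and none could be left out. In translation efficiency, K177Q against WT, the number of members at least 1.5-fold higher (2) was 7 with no minimum (lower 3), 1 with a minimum mean of 5 FPKM, with at least 1 FPKM in each library, at a 2-fold threshold and with the length trend removed, 13 rescaled to TPM and 8 with totals set equal without ribosomal protein genes. Of all 10905 kept genes, 445 were higher as given, 1971 rescaled to TPM and 1503 with those equal totals, so the whole table shifted with the scaling. With the length trend removed, 303 of 10305 genes were higher. The members' median (0.24) was 0.10 with no minimum, 0.53 rescaled to TPM, 0.47 without ribosomal protein genes and 0.035 with the trend removed, and it was above 0 under every alternative.

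The WT median polysome to sub-polysome ratio (0.76) was 0.16 with no minimum, 0.90 in TPM, 0.62 centred and 0.29 with the trend removed. Of the WT counts (19 higher, 3 lower), the higher was 7 at 2-fold and 8 with the trend removed, and the lower 5 with no minimum, 1 with a minimum of 5 and 0 at 2-fold. The K177Q median (0.92) was 0.81 with a pseudocount of 1, 0.35 with no minimum, 1.04 with a minimum of 5, 1.35 in TPM, 1.13 without ribosomal protein genes, 0.81 with median-of-ratios size factors, 0.75 centred and 0.35 with the trend removed. Its higher count (23) was 14 at 2-fold and 10 of 32 with the trend removed, beside 2180 of 10305 genes. Its lower count (1) was 3 with no minimum and with the trend removed, 2 with median-of-ratios factors and centred, and 0 with a pseudocount of 1, a minimum of 5, TPM, equal totals without ribosomal protein genes and the 2-fold threshold.

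In polysome RNA, K177Q against WT, the higher count (6) was 12 with no minimum (lower 3), 0 at 2-fold and 2 with the trend removed (201 of 10305 genes). The members' median (0.30) was 0.11 with no minimum. In sub-polysome RNA, with no minimum 3 members were higher and 4 lower, and 2 were higher with the trend removed (336 of 10305 genes). The 1 lower was 0 with a minimum of 5 or at least 1 FPKM in each library. The median (0.11) was 0.00 with no minimum, 0.23 with the trend removed, and reversed to -0.088 in TPM and -0.083 without ribosomal protein genes. Without a minimum, genes near 0 enter. The cause of the other differences was not tested.

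Of 167 values of 24 named genes under the alternatives, 12 reversed, 63 moved by 0.1 or more and 92 by less. In TPM and without ribosomal protein genes, ITGAV turned to 0.21 and 0.15, ITGB2 to 0.27 and 0.21 and ITGB3BP to 0.26 and 0.20. With the trend removed, COL13A1 turned to -0.0053, COL8A1 to -0.082, LAMC1 to -0.020, ITGA6 to -0.15, ITGA1 to -0.18 and ITGB3BP to 0.18.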
